A study of Mus musculus with 6 samples.

Results

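Endothelial genes are the transcripts that mark the cells lining blood and lymphatic vessels. Members were taken from a list of 36 gene names: each is a row of the deposited array table that carries exactly 1 gene symbol in the platform annotation, that symbol being a listed one, and a gene with more than 1 probe set would be represented by its brightest on average. By this rule 35 of the 36 names were measured, out of 19937 genes in all. Of these, 34 matched by symbol, Gpr116 is annotated under its current symbol Adgrf5, the name Robo4b matched no row, and none of the 35 had more than 1 probe set. The rule uses no difference between the genotypes.

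The samples came from newborn (P0) C57BL6 mice born to Atf5+/- parents. The Atf5-/- group, homozygous for loss of Atf5, a bZIP factor related to Atf4, had 3 samples, and the Atf5+/+ group, their wild-type counterpart, had 3. Each sample pooled the dissected septa and turbinates of 3 pups from different litters and was hybridised to 1 whole-transcript array, so a value is a mean over pups and cannot show differences between them. The deleted part of Atf5 is not stated.

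Endothelial cells line every vessel, joined by cadherin and claudin contacts. Their growth and stability are governed by receptor tyrosine kinases for VEGF and angiopoietins, by BMP9 signalling through Acvrl1 and endoglin, and by G protein-coupled receptors for sphingosine-1-phosphate, adrenomedullin and apelin, while ETS factors such as Erg and Fli1 and the SoxF factors Sox7, Sox17 and Sox18 maintain the endothelial programme. In the nose, vessels run in the lamina propria under the olfactory epithelium, so septum and turbinate dissections hold both tissues.

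The genotype labels and the tissue were checked first. Atf5 measured 9.43, 9.44 and 9.50 on the log2 scale in Atf5-/- arrays and 10.54, 10.96 and 10.63 in Atf5+/+ arrays, without overlap, a log2 change of -1.25 (SE 0.10, limma adjusted p = 0.000499). Of 10 genes of the olfactory tissue, 6 were lower in the knockout by limma and none higher (7 lower with the replicate number as a block, with Cyp2g1 added). The mean of 10 mature sensory neuron genes was 9.16 to 9.28 in Atf5-/- arrays and 10.77 to 11.09 in Atf5+/+ arrays, and 9 of the 10 fell. Pearson correlations over all genes were 0.994 to 0.996 within a genotype (6 pairs) and 0.986 to 0.992 between genotypes (9 pairs). The array of wild-type replicate 1 stood low in skeletal muscle genes, with a mean over 8 genes of 8.67, against 9.63 to 9.75 on the other wild-type arrays and 9.64 to 9.97 on the knockout arrays. None of these 8 genes passed, and 2 were higher in Atf5-/- with the block.

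The comparison of Atf5-/- with Atf5+/+ tissue asks whether vessel genes differ when Atf5 is missing. None of the 35 endothelial genes passed the test in either direction, where passing means a Benjamini-Hochberg adjusted p under 0.05 over all genes by limma. The measured differences nevertheless leaned one way: 31 of 35 members lay above 0 (higher in Atf5-/-) and 4 below, with a median log2 change of 0.17 and a range of -0.15 to 0.48. The largest were Lyve1, a hyaluronan receptor of lymphatic endothelium that some tissue macrophages also carry, at 1.39-fold (95% interval 1.16 to 1.67), and Ramp2, the accessory protein that turns Calcrl into an adrenomedullin receptor, at 1.31-fold (1.12 to 1.54). The tight junction protein Cldn5 lay lowest, at 0.90-fold (0.79 to 1.03), with 3 arrays per genotype for each value.

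Across all 19937 genes, 3.74% passed, 0.502% higher and 3.24% lower in Atf5-/-. In this model, which leaves out the replicate numbers, 0 of 35 higher is near the background. Once those numbers enter the model, 4 of 35 passed as higher, against 2.11% of all genes, as given below. A log2 change above 0 was measured for 53.0% of all genes, whose median was 0.01. Among the 9968 genes with a mean level above the median, where 26 of the members lie, 64.7% were above 0 and the median was 0.04. At an unadjusted p under 0.05, 14 members were higher and 0 lower, against 7.82% of all genes higher and 8.28% lower. For this count the share among genes above the median level was not computed. Every Atf5-/- array stood above every Atf5+/+ array for 12 members. This pattern was found in 10.8% of all genes and in 16.0% of those with a mean level above the median. No member had the opposite pattern, which 10.3% of all genes had. The members are expressed in the same cells and measured on the same arrays, so they are not independent of each other and these shares carry no p.

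**Figure D1:**
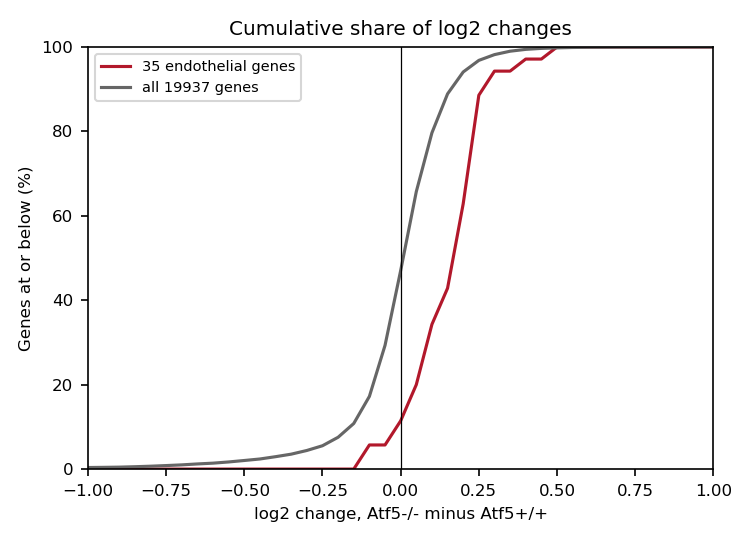
Share of genes (y axis, percent) at or below each log2 change of Atf5-/- minus Atf5+/+ (x axis), for the 35 endothelial genes and for all 19937 genes. The curve of the endothelial genes lies to the right, with a median of 0.17 against 0.01 for all genes.

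The replicate numbers of the arrays are shared between the genotypes, and arrays with the same number deviated together. When the replicate number entered the model as a block, 4 members passed, all higher in Atf5-/-: Ramp2 (adjusted p = 0.00885), Lyve1 (adjusted p = 0.0278), S1pr1 (adjusted p = 0.0326) and Eng (adjusted p = 0.0357). In that fit 6.57% of all genes passed, 2.11% higher and 4.46% lower. Without the block the adjusted p of these members was 0.0781, 0.0616, 0.0622 and 0.306 in the same order.

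The values of single arrays show which members make up this lean. Lyve1 measured 9.79, 9.80 and 9.87 in Atf5-/- arrays and 9.24, 9.65 and 9.15 in Atf5+/+ arrays. The groups did not overlap, the knockout arrays lay close together (SD 0.04) and the wild-type arrays lay wide apart (SD 0.26), with wild-type replicate 2 nearest to the knockout. Its log2 change was 0.48 (SE 0.12). Without wild-type replicate 2 it was 0.63 and passed (adjusted p = 0.00509), and with any 1 array left out it ran from 0.38 to 0.63. With a robust, intensity-trended prior it passed as well (adjusted p = 0.0445), a setting in which 4.15% of all genes passed, 0.642% higher and 3.51% lower.

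Ramp2 measured 9.93, 9.72 and 9.59 in Atf5-/- arrays and 9.52, 9.26 and 9.29 in Atf5+/+ arrays, again without overlap. Its log2 change was 0.39 (SE 0.10), and it passed when knockout replicate 3, its lowest knockout array, was left out (0.47, adjusted p = 0.0477). S1pr1, the sphingosine-1-phosphate receptor that stabilises vessel junctions, measured 10.09, 10.17 and 10.28 in Atf5-/- arrays and 9.89, 9.88 and 9.95 in Atf5+/+ arrays, a change of 0.27 (SE 0.07). Its groups did not overlap, and the wild-type values lay within an SD of 0.04.

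Eng encodes endoglin, the co-receptor for BMP9 on endothelial cells. It measured 10.58, 10.71 and 10.90 in Atf5-/- arrays and 10.27, 10.36 and 10.72 in Atf5+/+ arrays. Here the groups overlapped, since wild-type replicate 3 stood above knockout replicates 1 and 2, while each knockout array was above the wild-type array of its own number. The change was 0.28 (SE 0.12).

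**Figure D2:**
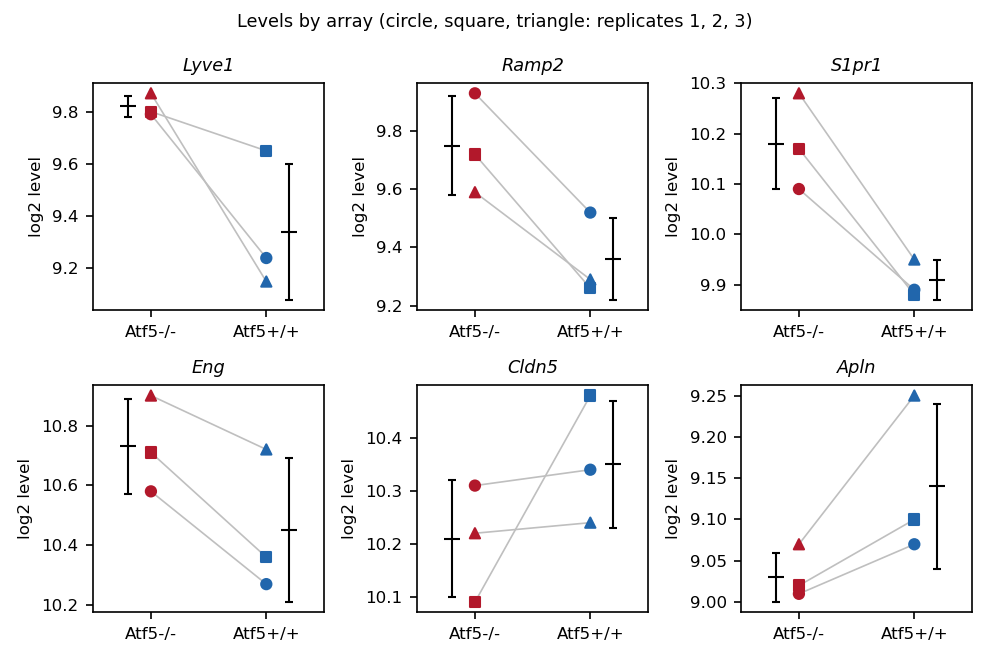
log2 levels (y axes, each panel with its own range) of 6 endothelial genes in the 3 Atf5-/- and 3 Atf5+/+ arrays; marks are single arrays, grey lines join arrays of the same replicate number, and black bars are the mean and SD of each genotype. Lyve1, Ramp2 and S1pr1 do not overlap between genotypes, Eng overlaps but is higher in Atf5-/- within each number, and Cldn5 and Apln are lower on average in Atf5-/-.

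Among the 9 genes of junctions and surface adhesion, 8 lay above 0, with a median of 0.21. Cdh5, the cadherin of endothelial adherens junctions, measured 11.20, 11.33 and 11.32 in Atf5-/- arrays and 10.94, 11.15 and 11.07 in Atf5+/+ arrays (0.23, SE 0.07, adjusted p = 0.16). Cd34, a sialomucin of endothelial and blood progenitor cells, measured 11.59, 11.52 and 11.55 in Atf5-/- arrays and 11.24, 11.37 and 11.37 in Atf5+/+ arrays (0.23, SE 0.06, adjusted p = 0.0983). Both were without overlap, as was Esam, a junctional adhesion molecule, at 9.63, 9.57 and 9.66 in Atf5-/- arrays and 9.27, 9.41 and 9.50 in Atf5+/+ arrays.

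Pecam1, an adhesion molecule of endothelial contacts, measured 10.10, 10.10 and 10.27 in Atf5-/- arrays and 9.83, 10.14 and 9.86 in Atf5+/+ arrays. Wild-type replicate 2 lay within the knockout range, and the change was 0.21 (95% interval -0.00 to 0.42). The mucin-like Emcn, found on capillaries and veins, was at 0.22 (SE 0.08), the lectin-domain protein Clec14a at 0.17 (SE 0.07) and the receptor phosphatase Ptprb at 0.11 (SE 0.07), all with overlapping groups. The remaining genes of the group did not share the lean: Icam2, an intercellular adhesion molecule, was at 0.00 (interval -0.15 to 0.16). Icam2 is counted as above 0 by less than the last printed digit.

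Cldn5, the main claudin of endothelial tight junctions, measured 10.31, 10.09 and 10.22 in Atf5-/- arrays and 10.34, 10.48 and 10.24 in Atf5+/+ arrays. The groups overlapped, and the change was -0.15 (SE 0.08, adjusted p = 0.448). The upper bound of its interval was 0.04, which lies below the lower bounds of Cdh5 (0.06), Cd34 (0.08) and Esam (0.06). The difference between these genes was not tested.

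All 5 receptor tyrosine kinases lay above 0, between 0.15 and 0.24. Tek, the receptor for angiopoietins, measured 10.24, 10.20 and 10.05 in Atf5-/- arrays and 9.96, 10.06 and 9.76 in Atf5+/+ arrays (0.24, SE 0.09, adjusted p = 0.231). Its partner Tie1 measured 9.77, 9.57 and 9.62 in Atf5-/- arrays and 9.39, 9.41 and 9.52 in Atf5+/+ arrays (0.21, SE 0.07, adjusted p = 0.182). Tie1 did not overlap between genotypes, and Tek overlapped by 1 array of each genotype.

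Kdr, the main VEGF receptor of endothelial growth, measured 9.63, 9.71 and 9.70 in Atf5-/- arrays and 9.40, 9.63 and 9.57 in Atf5+/+ arrays (0.15, SE 0.07). Flt1, a VEGF receptor that also acts as a decoy, was at 0.15 (SE 0.09). Flt4, the VEGFC receptor of lymphatic endothelium, measured 8.95, 8.65 and 8.75 in Atf5-/- arrays and 8.65, 8.60 and 8.56 in Atf5+/+ arrays (0.18, SE 0.08). Kdr and Flt4 count among the members without overlap by less than the last printed digit.

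**Figure D3:**
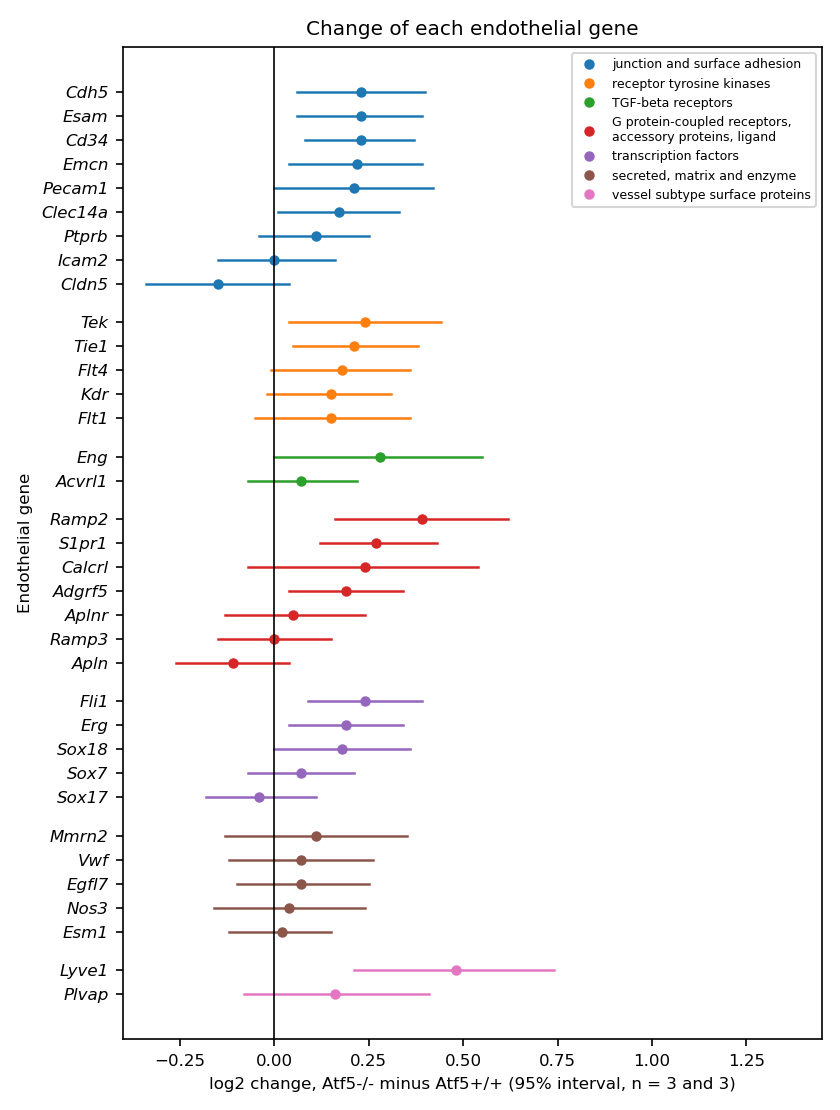
log2 change of Atf5-/- minus Atf5+/+ (x axis; point, with the 95% interval of limma as a line, 3 arrays per genotype) for the 35 endothelial genes, grouped by role. Most points lie above 0, 14 intervals lie wholly above 0, none lies wholly below 0, and 21 include 0.

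Among the receptor tyrosine kinases and BMP9 receptors, Eng, Tek and Tie1 had the largest differences, and their promoters are in the RefSeq table used here. The windows are shown because binding sequences of the ETS and Sox families are what endothelial promoters are known for. Each window runs from 250 bases before to 50 after the gene's start, in build GRCm38.p6, read 5′ to 3′ on the gene's own strand. Capitals mark the letters GGAAGT (a form of the ETS site) or AACAAT (a form of the Sox site), each searched on both strands. Other forms of these sites were not searched and stay in lower case. The windows are chr2:32646345-32646644 on the plus strand for Eng, chr4:118489800-118490099 on the minus strand for Tie1 and chr4:94739039-94739338 on the plus strand for Tek.
Eng: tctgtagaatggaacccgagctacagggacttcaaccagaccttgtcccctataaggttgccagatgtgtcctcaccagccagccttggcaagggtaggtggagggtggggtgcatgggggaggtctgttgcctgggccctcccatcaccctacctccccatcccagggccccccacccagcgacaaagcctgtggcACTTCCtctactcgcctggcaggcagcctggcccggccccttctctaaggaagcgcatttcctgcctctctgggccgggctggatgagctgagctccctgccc
Tie1: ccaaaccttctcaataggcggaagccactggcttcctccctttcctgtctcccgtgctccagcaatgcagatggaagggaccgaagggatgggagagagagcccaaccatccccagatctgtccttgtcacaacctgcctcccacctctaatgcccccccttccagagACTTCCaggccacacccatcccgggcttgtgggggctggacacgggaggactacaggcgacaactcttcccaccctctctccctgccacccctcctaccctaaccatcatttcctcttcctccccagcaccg
Tek: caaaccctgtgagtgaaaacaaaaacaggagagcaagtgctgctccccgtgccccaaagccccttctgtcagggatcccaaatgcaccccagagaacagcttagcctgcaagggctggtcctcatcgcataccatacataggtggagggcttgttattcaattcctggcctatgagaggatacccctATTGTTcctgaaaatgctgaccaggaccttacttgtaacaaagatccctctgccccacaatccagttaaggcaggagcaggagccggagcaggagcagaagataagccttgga
Eng and Tie1 held GGAAGT once each and no AACAAT, and Tek held AACAAT once and no GGAAGT; all 3 matches were on the reverse strand of the printed sequence. The table held promoters for 17 of the 35 members, with 22 windows. GGAAGT was in 8 of these windows (36.4%), against 23.8% of all 32851 windows, and AACAAT in 4 (18.2%), against 10.7% of all windows. Matches of the 2 motifs did not overlap in any member's window, and no member held both. A match is a run of letters in the window and does not show that a factor binds there.

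Of the 2 receptors for BMP9, Eng is given above. Acvrl1, the kinase receptor that endoglin assists, measured 8.94, 9.00 and 9.01 in Atf5-/- arrays and 8.85, 8.98 and 8.90 in Atf5+/+ arrays, an overlapping 0.07 (SE 0.06). The interval of Acvrl1 reached 0.22 at most.

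Among the 7 G protein-coupled receptors, accessory proteins and ligand, 5 lay above 0. Calcrl, the receptor that Ramp2 accompanies, measured 10.19, 10.09 and 9.68 in Atf5-/- arrays and 9.87, 9.81 and 9.56 in Atf5+/+ arrays. Its log2 change was 0.24 with a wide error (SE 0.13, adjusted p = 0.44), and both Calcrl and Ramp2 were highest in replicate 1 of each genotype. Without knockout replicate 3, Calcrl was at 0.39. Ramp3, the other accessory protein that gives an adrenomedullin receptor, measured 7.55, 7.53 and 7.70 in Atf5-/- arrays and 7.55, 7.60 and 7.62 in Atf5+/+ arrays, a change of -0.00 (SE 0.07).

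The upper bound for Ramp3, 0.15, lies below the lower bound for Ramp2, 0.16, but the difference was not tested. Ramp3 was also much dimmer, with a mean of 7.59 in each genotype, against 9.75 (Atf5-/-) and 9.36 (Atf5+/+) for Ramp2. The part of this low level in its small change was not tested. Adgrf5, an adhesion-type receptor, was at 0.19 (SE 0.07) without overlap. Aplnr, the apelin receptor, was at 0.05 (SE 0.08). Its ligand Apln, a marker of sprouting tip cells, measured 9.01, 9.02 and 9.07 in Atf5-/- arrays and 9.07, 9.10 and 9.25 in Atf5+/+ arrays, an average of 0.93-fold (0.83 to 1.03) that did not pass (adjusted p = 0.479).

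Of the 5 transcription factors, 4 lay above 0. Fli1, an ETS factor of endothelial and blood cells, measured 9.75, 9.65 and 9.62 in Atf5-/- arrays and 9.45, 9.47 and 9.37 in Atf5+/+ arrays (0.24, SE 0.06, adjusted p = 0.0885). Erg, the ETS factor that keeps endothelial identity, measured 9.30, 9.49 and 9.37 in Atf5-/- arrays and 9.15, 9.24 and 9.19 in Atf5+/+ arrays (0.19, SE 0.07, adjusted p = 0.207). Neither overlapped between genotypes.

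Of the SoxF factors, Sox18 was at 0.18 (SE 0.08, adjusted p = 0.315), Sox7 at 0.07 (SE 0.06) and Sox17, a factor of arterial endothelium, at -0.04 (SE 0.07, interval -0.18 to 0.11). Their intervals overlap. Sox17, Ramp3 and Esm1 are the members whose mean level lay in the lowest 30 percent of all genes.

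The 5 secreted, matrix and enzyme genes lay nearest to 0 of the role groups, with changes of 0.02 to 0.11 and a median of 0.07. Vwf, the clotting factor carrier stored in endothelial granules and platelets, measured 9.40, 9.20 and 9.44 in Atf5-/- arrays and 9.23, 9.21 and 9.40 in Atf5+/+ arrays. Nos3, the endothelial nitric oxide synthase, was at 0.04 (interval -0.16 to 0.24), Esm1, a proteoglycan of tip cells, at 0.02 (-0.12 to 0.15), Egfl7, a secreted vessel matrix protein, at 0.07 (-0.10 to 0.25) and Mmrn2, a matrix ligand of Clec14a, at 0.11 (-0.13 to 0.35). All overlapped between genotypes. Plvap, the diaphragm protein of fenestrated capillaries, was at 0.16 (SE 0.11), also with overlap.

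Whether members move together was read from each array. Over the 35 members the mean level was 9.57, 9.55 and 9.58 in Atf5-/- arrays and 9.37, 9.46 and 9.43 in Atf5+/+ arrays, so the knockout arrays lay within 0.03 of each other and above each wild-type array. In the knockout arrays 24, 25 and 28 of 35 members stood above their own 6-array mean, against 3, 12 and 10 in the wild-type arrays. Over all genes the corresponding shares were 57.1%, 51.6% and 47.3% in Atf5-/- arrays and 44.6%, 58.1% and 45.8% in Atf5+/+ arrays. They were not computed among genes above the median level, where most members lie.

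**Figure D4:**
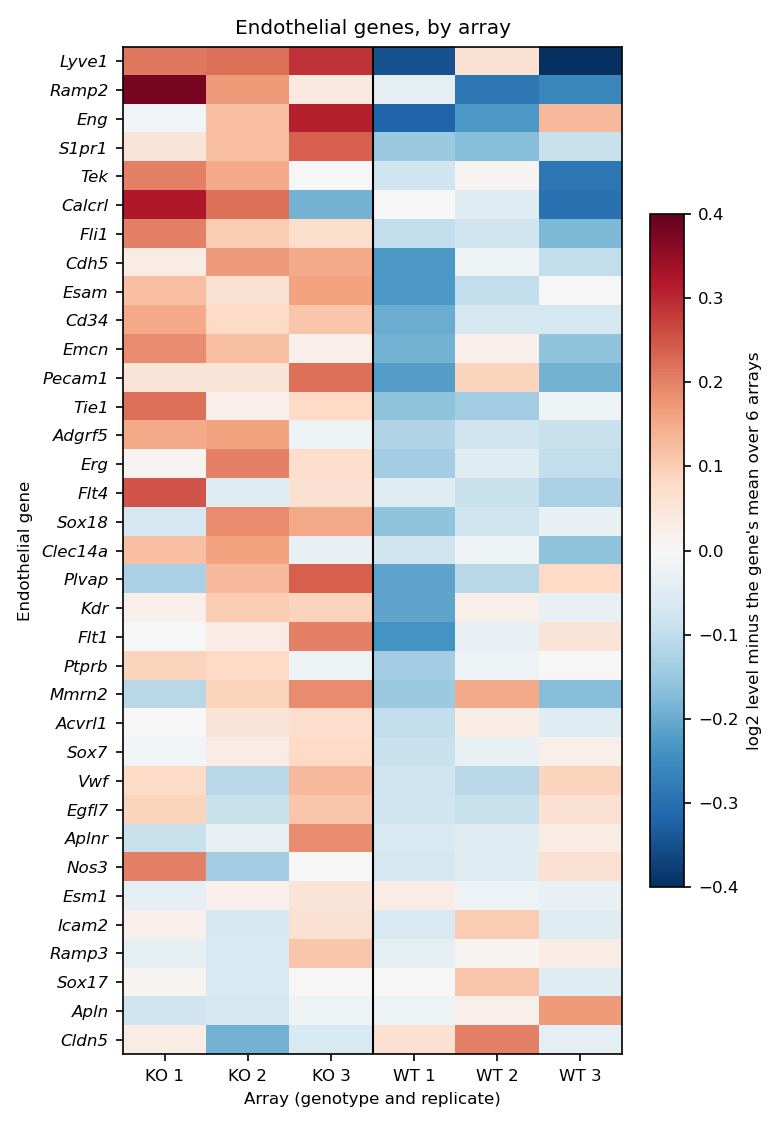
log2 level minus each gene's own mean over the 6 arrays (colour, from -0.4 in blue to 0.4 in red) for 35 endothelial genes (rows, ordered by log2 change) in 3 Atf5-/- arrays and 3 Atf5+/+ arrays (columns). Wild-type replicate 1 has 3 of 35 members above their mean and the knockout arrays 24 to 28.

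Within a genotype the members moved less uniformly. Wild-type replicate 1 was the lowest wild-type array for 21 members, and 37.1% of all genes had their lowest wild-type value there. Knockout replicate 3 was the highest knockout array for 17 members, knockout replicate 1 for 12 and knockout replicate 2 for 6, against 32.6%, 33.3% and 34.2% of all genes in the same order. Knockout replicate 1 was also the lowest knockout array for 16 members, against 22.9% of all genes. Eng, Aplnr and Plvap were highest in knockout replicate 3, while Calcrl and Ramp2 were lowest there. With wild-type replicate 1 left out, 30 members lay above 0 with a median of 0.14, and 12 still had every knockout array above every wild-type array, against 13.6% of all genes.

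Deviations from the genotype mean were shared between arrays of the same number. Over the 35 members they correlated at 0.658, 0.226 and 0.543 for numbers 1, 2 and 3, and over all genes at 0.295, 0.122 and 0.234. These values describe arrays whose deviations sum to 0 within a genotype, and what arrays of 1 number have in common is not stated.

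Other genes of vessels were compared in lists apart from the members. None of 15 angiogenic ligands passed. All 15 lay above 0, as did 53.0% of all genes, but the median was 0.07 and Adm, Adm2 and Bmp10 were each at 0.01. Only 8 of the 15 had a mean level above the 30th percentile of all genes. Vegfa, the ligand of Kdr and Flt1, measured 10.46, 10.26 and 10.41 in Atf5-/- arrays and 9.96, 10.04 and 10.19 in Atf5+/+ arrays, without overlap (0.31, SE 0.08, adjusted p = 0.0802; adjusted p = 0.045 with the block). Vegfb, a ligand of Flt1, was at 0.02 (SE 0.06).

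None of 20 other receptors and partners passed either. Their median was 0.09, with Nrp1 at -0.05 and Nrp2 at 0.04, both co-receptors of VEGF. The lysophosphatidic acid receptor Lpar4 was at 0.48 (SE 0.14, adjusted p = 0.107; adjusted p = 0.00419 with the block; adjusted p = 0.0433 without wild-type replicate 2). The guidance receptor Robo4, whose name resembles the unmatched list entry, was at 0.20 (SE 0.08, adjusted p = 0.274).

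Of 20 other endothelial transcription factors 0 passed, with a median of 0.08, Tal1 at -0.06, Lmo2 at -0.02 and Bcl6b at 0.18. With the block 1 of them passed, Mef2c, at 0.27 (adjusted p = 0.227 without the block). Of 15 capillary and transport genes 0 passed, with a median of 0.08. Their lowest p was that of the caveolar coat gene Cavin1 (0.22, SE 0.07), while Slc2a1, the glucose transporter of barrier vessels, was at 0.15 and Mfsd2a, a lipid transporter of such vessels, at -0.02.

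Among 12 hypoxia-inducible genes 1 rose, Ddit4, an inhibitor of mTORC1 signalling, at 10.20, 10.25 and 10.00 in Atf5-/- arrays and 9.79, 9.67 and 9.86 in Atf5+/+ arrays (0.38, SE 0.08, adjusted p = 0.0408). Leaving out knockout replicate 1, knockout replicate 2 or any 1 wild-type array ended this call (highest adjusted p = 0.147). The list had a median of 0.20. Car9 was at 0.21 and Pfkfb3 at 0.18, neither past the threshold. With the block P4ha1 passed too, at 0.32 (adjusted p = 0.0596 without the block).

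Genes of neighbouring cells were compared in the same way. In whole tissue, more cells of a type and more RNA per cell cannot be told apart, and RMA values are relative within an array. The mean of 12 macrophage and leukocyte genes was 9.33 to 9.48 in Atf5-/- arrays and 9.23 to 9.29 in Atf5+/+ arrays, with a median change of 0.17 and 0 of 12 past the threshold. The mean of 12 mesenchyme genes was 11.40 to 11.52 in Atf5-/- arrays and 11.24 to 11.37 in Atf5+/+ arrays, with a median of 0.14 and 1 gene higher, the matrix proteoglycan Lum (0.35, SE 0.08, adjusted p = 0.0428). The call of Lum was lost in 4 of 6 settings with 1 array left out, all but those without replicate 1 of the knockout or replicate 3 of the wild type (highest adjusted p = 0.173), after a second quantile normalization, and among genes above the median level alone. With the block, 2 of the 12 macrophage and leukocyte genes passed.

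The mean of 16 pericyte and vascular smooth muscle genes was 9.55 to 9.67 in Atf5-/- arrays and 9.47 to 9.58 in Atf5+/+ arrays, with a median of 0.10, Pdgfrb at 0.16 and Rgs5 at -0.11. Its lowest p was that of Des, an intermediate filament gene that skeletal muscle also expresses, which measured 9.12, 9.26 and 9.38 in Atf5-/- arrays and 8.12, 9.02 and 9.02 in Atf5+/+ arrays, without overlap (0.53, SE 0.21, adjusted p = 0.253). The means of 6 erythroid genes overlapped, at 7.69 to 7.80 in Atf5-/- arrays and 7.59 to 7.82 in Atf5+/+ arrays, as did those of 7 platelet genes, at 8.63 to 8.70 in Atf5-/- arrays and 8.58 to 8.65 in Atf5+/+ arrays. No gene of the mural cell, erythroid or platelet lists passed. With the block 1 erythroid gene passed, the haem synthesis enzyme Alas2 (0.39, SE 0.17), and 1 platelet gene, the chemokine Pf4 (0.29, SE 0.11), both higher in Atf5-/-. The erythroid list had a median of -0.02 with 3 of 6 genes above 0, and Hba-x was at -0.06. The platelet list had a median of -0.04 with 2 of 7 above 0. Its genes Itga2b and Gp5 were at -0.00 and -0.12, and every Atf5-/- array stood below every Atf5+/+ array for Gp5. Lists of epithelial and tooth tissue lay the other way. The mean of 3 enamel genes was 7.98 to 9.02 in Atf5-/- arrays and 9.41 to 11.61 in Atf5+/+ arrays, with a median change of -2.32 and 2 of 3 lower by limma (3 with the block). Both calls, of Enam and Amelx, were lost with a trended and robust prior. With 1 array left out, Enam passed only without wild-type replicate 3, and Amelx only without that array or without knockout replicate 3. The mean of 7 sustentacular cell and gland genes was 10.66 to 11.09 in Atf5-/- arrays and 10.94 to 11.52 in Atf5+/+ arrays, with a median of -0.33 and 0 of 7 past the threshold (3 lower with the block). The part of these cells and tissues in the endothelial values was not tested.

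**Figure D5:**
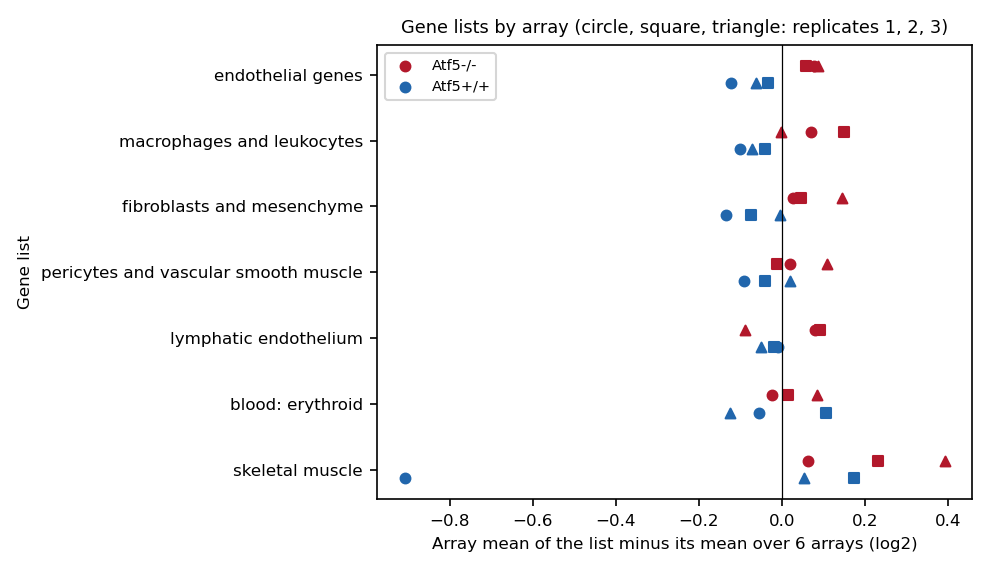
Mean log2 level of each gene list in each array, minus the list's mean over the 6 arrays (x axis), with marks by replicate number. Within each row the Atf5-/- marks are drawn on the upper line and the Atf5+/+ marks on the lower line, whatever their values. Of the lists drawn, the endothelial, macrophage and mesenchyme lists do not overlap between genotypes, and the pericyte, lymphatic and erythroid lists do. Wild-type replicate 1 stands apart in skeletal muscle genes. Among lists not drawn, the angiogenic ligands, other endothelial receptors, other endothelial transcription factors and hypoxia-inducible genes do not overlap either. The capillary and transport list, also not drawn, does.

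For Lyve1 the lymphatic and macrophage lists are the closest company. The mean of 7 other lymphatic genes was 9.30 to 9.48 in Atf5-/- arrays and 9.34 to 9.38 in Atf5+/+ arrays, with a median of -0.01 and 0 of 7 past the threshold. Only 3 of the 7 lay above 0. Prox1, the factor that specifies lymphatic endothelium, was at -0.05 (SE 0.06, interval -0.19 to 0.09) and Pdpn, a lymphatic and mesenchymal glycoprotein, at -0.01 (SE 0.07). The semaphorin Sema3d was at 0.24 (SE 0.08, adjusted p = 0.181) and the scavenger receptor Stab1, which macrophages also carry, at 0.18 (adjusted p = 0.211), and for both every Atf5-/- array stood above every Atf5+/+ array. Mrc1, the mannose receptor of tissue macrophages and lymphatic vessels, measured 9.69, 9.87 and 9.52 in Atf5-/- arrays and 9.24, 9.50 and 9.29 in Atf5+/+ arrays (0.35, SE 0.10, adjusted p = 0.106; adjusted p = 0.0163 with the block). Both Lyve1 and Mrc1 had their highest wild-type value in replicate 2. That array was also the highest wild-type array for 41.3% of all genes and for 15 endothelial members, Lyve1 among them. Csf1r, the growth factor receptor of macrophages, was at 0.17 (SE 0.06), and Ptprc, a surface phosphatase of all leukocytes, at -0.00 (SE 0.06).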

How the data were processed

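RNA of 6 pooled samples was measured on 1-colour arrays. Per the labels' protocols, RNA was isolated with Trizol and RNeasy columns and converted with the Ambion WT Expression Kit. The submitters' processing notes name RMA, affy and limma and give no version. The deposited values, from 4.50 to 14.7, were read as log2 levels; the base of the logarithm is not given in the sources used here. RMA, as generally defined, quantile-normalizes arrays, which hides a change shared by most transcripts.

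Rows with 1 symbol in GEO's platform annotation (21640 of 34760) gave 19937 genes, without a filter on dim ones; older names were matched through RefSeq (GRCm38.p6). Array medians lay between 8.67 and 8.72, and precision is limited by there being 3 arrays per genotype. Groups and replicate numbers were read from the titles, which call the samples biological replicates. The test was limma 3.58.1 in R 4.3.3 (lmFit and eBayes without covariates, knockout minus wild type, 2-sided), adjusted over all genes by Benjamini-Hochberg; SE stands for its moderated standard error, and intervals are at 95%. Same-number correlations of deviations all exceeded 0.1, the rule for treating the numbers as pairs, so a fit that holds the number as a block is given wherever a call changed.

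The members and lists were chosen with earlier results of these data known. All measured members could be named; from the other lists, the first 2 measured genes and up to 3 that passed or else the one with the lowest p. Robo4, P4ha1, Mef2c and Stab1 were named outside this rule, after their values were seen. On simulated data with 19937 genes of this comparison, the test called 4 of 50 genes given a log2 change of 0.25. It called 32 of 50 given 0.5 and 47 of 50 given 1, along with 6 unchanged genes. There, 50 genes were changed at each size, drawn from all levels, while 745 genes passed in the data. The adjusted threshold is stricter when fewer genes change, so the simulated rates may lie below those of the data. The alternatives were the block, a second quantile normalization, median centring, 2 filters on dim genes, the mean of probe sets, a trended and robust prior, and each array left out in turn.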

Additional observations from a re-analysis of the deposited data

How the results depend on the processing

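Over 13 alternatives the median log2 change of the endothelial genes stayed between 0.14 and 0.20, and no endothelial gene was called lower in Atf5-/-. Not all of these could move the median. The block and the trended and robust prior leave log2 changes as they were. The mean of probe sets could not act, since no member had more than 1. The median was 0.17 in each of these settings. The filters on dim genes drop members and change no member's value. The count called higher was 4 with the replicate number as a block and 1 with a trended and robust prior; with 1 array left out it ran from 0 to 1. The block changed no other call of an endothelial gene. Over all genes, the number higher was 421 with the block and 60 with only genes above the median level, and ran from 27 to 127 with 1 array left out (100 as reported). The number lower was 358 above the 30th percentile of level and 226 above the median, and ran from 383 to 584 with 1 array left out (645 as reported); the filters test fewer genes. Members near 0 changed sign: Ramp3 to 0.06 and Sox17 to 0.01 after a second quantile normalization, and Icam2 to -0.00 after median centring. With 1 array left out, Icam2 ran from -0.02 to 0.06, Ramp3 from -0.06 to 0.03, Nos3 from -0.05 to 0.12, Aplnr from -0.03 to 0.11, Esm1 from -0.00 to 0.04 and Sox17 from -0.07 to 0.01. The cause of these changes was not tested. Atf5 kept its call throughout (-1.34 to -1.13 with 1 array left out). In the simulated data 4 of 50 changes of 0.25 were called, but fewer genes were changed there than passed here. How often changes of the members' size would be called in these data was not tested.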
